A study of Mus musculus with 5 samples.

Results

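The genes described here are those of the interferon regulatory factors (IRFs) and of the signal transducers and activators of transcription (STATs) in mouse bone marrow macrophages during a course of lipopolysaccharide (LPS), the endotoxin of Gram-negative bacteria. They were picked by symbol, as the numbered Irf and Stat genes of the mouse. The choice of these families was made with earlier results of these data known. Of these 16 symbols, 7 were measured on all 5 arrays, by 9 probes, out of 8637 genes in all. They are Irf1, Irf3, Irf5, Irf7, Irf9, Stat2 and Stat5b. Irf7 and Stat5b have 2 probes each and the others 1. The remaining 9 symbols, among them Stat3 and Irf8, were not analysed here.

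Both families carry signals from pattern receptors and cytokine receptors into the nucleus. In macrophages exposed to LPS, the receptor TLR4 activates IRF3, which is already present in resting cells and helps to switch on interferon beta. Secreted interferon then acts back on the cell through its receptor and the kinases JAK1 and TYK2, which activate STAT proteins. STAT2 acts with IRF9 in the complex ISGF3, which binds the interferon-stimulated response element of its target genes, and the genes of IRF7, IRF9 and STAT2 are themselves known interferon targets. IRF5 acts below MyD88 on genes of inflammatory cytokines. IRF1 is a factor whose gene is known to be switched on by STAT proteins and NF-kappaB. STAT5 proteins carry signals of growth factors and haematopoietic cytokines.

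The macrophages were derived from bone marrow of C3H/ARC mice and were differentiated in culture with human colony stimulating factor 1 (CSF-1). One group was unstimulated (0 h), and the others had received S. minnesota LPS at 10 µg/ml for 0.5, 2, 7 or 21 h. Strain, CSF-1 culture and the reference RNA, from whole C57BL6/J embryos of 17.5 days in the second channel, are common to all 5 groups. Each group is 1 array without a replicate, so no test was possible. Whether cells of several animals were pooled is not stated in the labels.

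Values are log2 ratios of macrophage to embryo RNA with the array median set to 0. The deposited log ratios were read as base 10, which was inferred from their spread and is not stated. If they are base 2, every log2 value below is 3.32 times too large. The direction is likely rather than stated. It rests on 11 measured macrophage markers, whose median log2 ratio on the 5 arrays was 1.21 to 1.75, and on 33 whole-embryo markers, whose medians were -2.18 to -1.53. Of the macrophage markers, 8 lay above the array median at 0 h, with Ctss (6.21) and Lyz2 (4.16) highest, and 3 lay below it, Cd68 (-0.49), Fcgr2b (-0.21) and Tyrobp (-0.04). On the other arrays 9 or 10 of the 11 lay above. All 33 embryo markers lay below the array median at 0 h, and 1 to 3 of them lay above it on the other arrays. In RNA of a whole culture, fewer cells of a type and less RNA per cell cannot be told apart.

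The spread available for these values is that between probes for the same gene. Pooled over 3015 genes that have 2 or more probes, the SD of the log2 change from 0 h was 0.67 at 0.5 h, 0.97 at 2 h, 0.51 at 7 h and 0.47 at 21 h. It is technical and leaves out the spread between cultures. The 0.5 h and 2 h arrays held many high ratios that followed the probe number. Of 207 runs of 96 consecutive numbers, 94 are called affected because 10% or more of their probes reached a 2-fold higher ratio than at 0 h on one of these arrays, a choice made after seeing the data. The probes of Irf3, Irf5 and Stat2 lie in affected runs. Those of Irf1, Irf7, Irf9 and Stat5b lie outside them. Shares of high probes inside or outside affected runs at 0.5 h and 2 h follow in part from this choice. The pooled SD takes in probes of both kinds. It is the spread of a single probe and is used also for Irf7 and Stat5b, whose values are means of 2 probes.

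**Figure D1:**
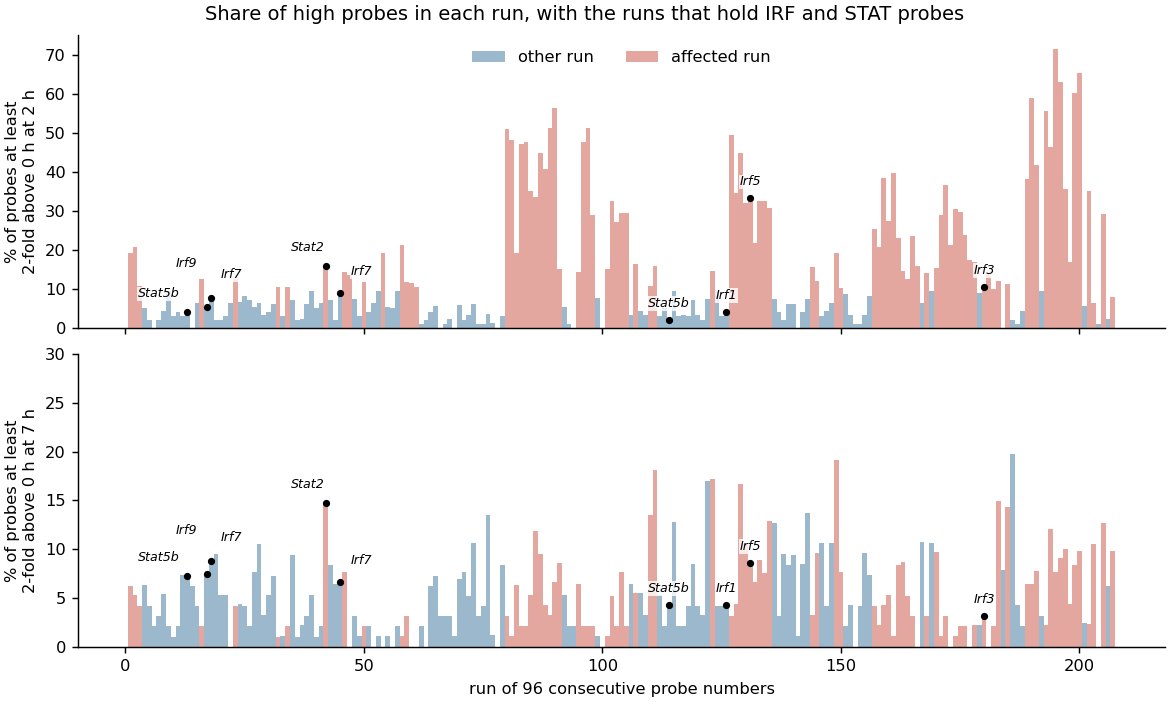
Percentage of probes at least 2-fold above 0 h in each run of 96 consecutive probe numbers (x axis), at 2 h (top) and at 7 h (bottom), with affected runs in red and black dots on the runs that hold IRF and STAT probes. At 2 h the run of Irf5 held 33.3% high probes and that of Irf3 10.6%, while the runs of the members outside affected runs held 2.15% to 8.89%.

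Stretches before the transcription start of 2 members are shown because each holds a match to a site of the STAT and IRF pathway. The promoter windows of RefSeq (GRCm38.p6) run from 250 bases before to 50 bases after a start, and the 7 members have 10 of them. The core of the interferon-stimulated response element was searched as GAAANNGAA, the STAT site GAS as TTCNNNGAA and a kappaB-like site as GGGNNTTTC, each on both strands. In capitals, Irf1 holds a GAS match 90 bases before its start (chr11:53769879-53769978, plus strand), and Stat2 holds a response element match on the opposite strand 221 bases before its start (chr10:128270248-128270347, plus strand).
Irf1: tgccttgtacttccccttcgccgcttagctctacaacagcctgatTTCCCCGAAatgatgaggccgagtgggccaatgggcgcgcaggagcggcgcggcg
Stat2: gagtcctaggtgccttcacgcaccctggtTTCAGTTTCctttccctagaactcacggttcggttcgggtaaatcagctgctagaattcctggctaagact
Each of these motifs thus stood in 1 of the 10 windows, against 8.56% of all 32851 windows for the response element core and 8.30% for GAS. The kappaB-like letters stood in 0 of the 10 and in 4.36% of all windows. A match is a description of letters and does not show binding. No window of Irf7 or Irf9 held any of these letters, which says nothing about these factors there.

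The members had different courses over the 21 h. Irf7 and Stat2 were highest on the 7 h array and stayed above 0 h at 21 h, and Irf9 had a smaller difference on the same arrays. Irf1 was already higher at 0.5 h and highest at 2 h. Irf3 and Irf5 were highest at 2 h and near or below the 0 h value later. Stat5b differed from 0 h by -0.20 to 0.09 log2 units.

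**Figure D2:**
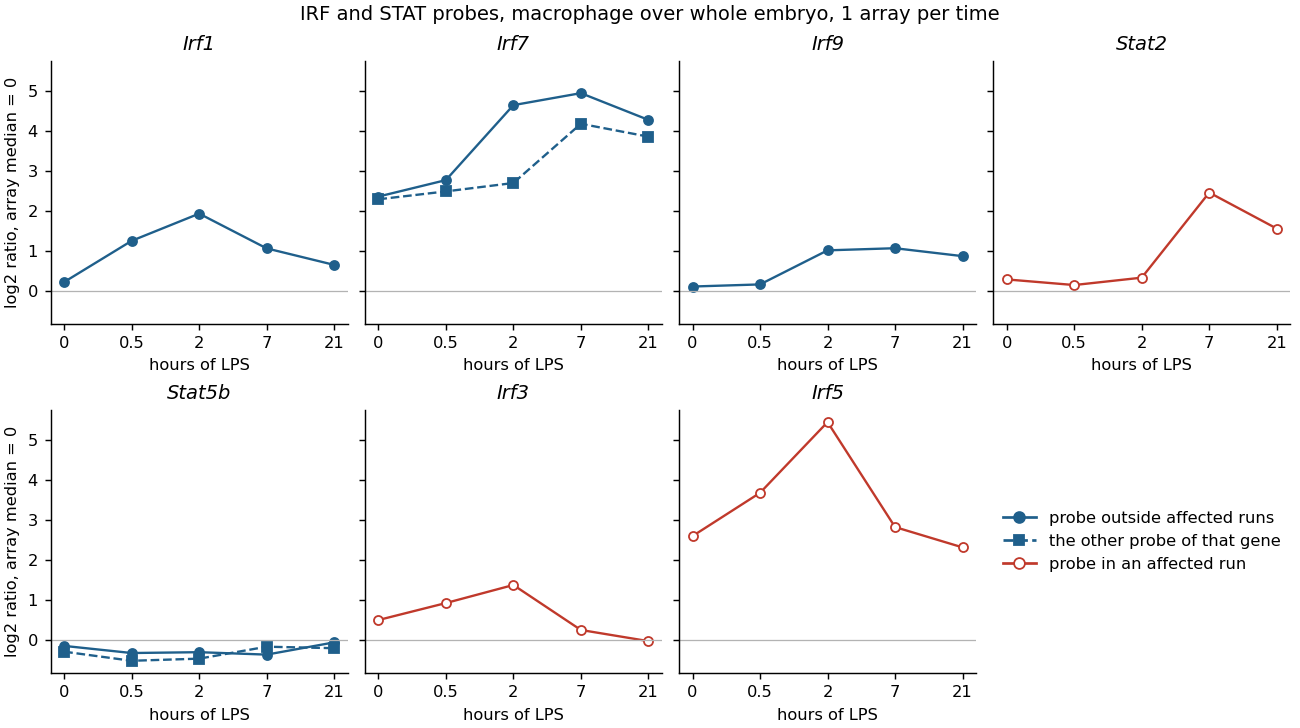
Log2 ratio of macrophage over embryo RNA with the array median at 0 (y axis) on the arrays of 0, 0.5, 2, 7 and 21 h of LPS (x axis, evenly spaced), 1 line per probe, with open red circles for probes in affected runs. The 2 probes of Irf7 start at 2.36 and 2.29 and part at 2 h, at 4.65 and 2.70, before coming closer at 7 h.

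Counted by size, 2 of the 7 members were at least 2-fold higher than 0 h at 0.5 h (Irf1 and Irf5), where 5.95% of all 8637 genes were. At 2 h there were 3 (Irf1, Irf5 and Irf7), against 12.4% of all genes. At 7 h there were 2 (Irf7 and Stat2), against 4.08%, and at 21 h the same 2 genes, against 3.05%. The counts of members at least 2-fold lower were 0 at each of the 4 times, against 1.01%, 1.10%, 3.16% and 1.45% of all genes. The median log2 change of the 7 was 0.30, 0.91, 0.84 and 0.43 in order of time, beside 0.08, 0.07, -0.00029 and 0.02 over all genes. Among the 4 members measured outside affected runs, 1, 2, 1 and 1 were at least 2-fold higher, where 1.28%, 4.22%, 4.52% and 2.55% of 5996 genes were, and 0 were at least 2-fold lower, where 0.984%, 1.55%, 2.87% and 1.08% were. The values outside affected runs at 0.5 h and 2 h follow in part from leaving out runs with many high probes then. With 7 genes, a single gene moves a share of members by a large step, and the comparisons share the 0 h array.

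**Figure D3:**
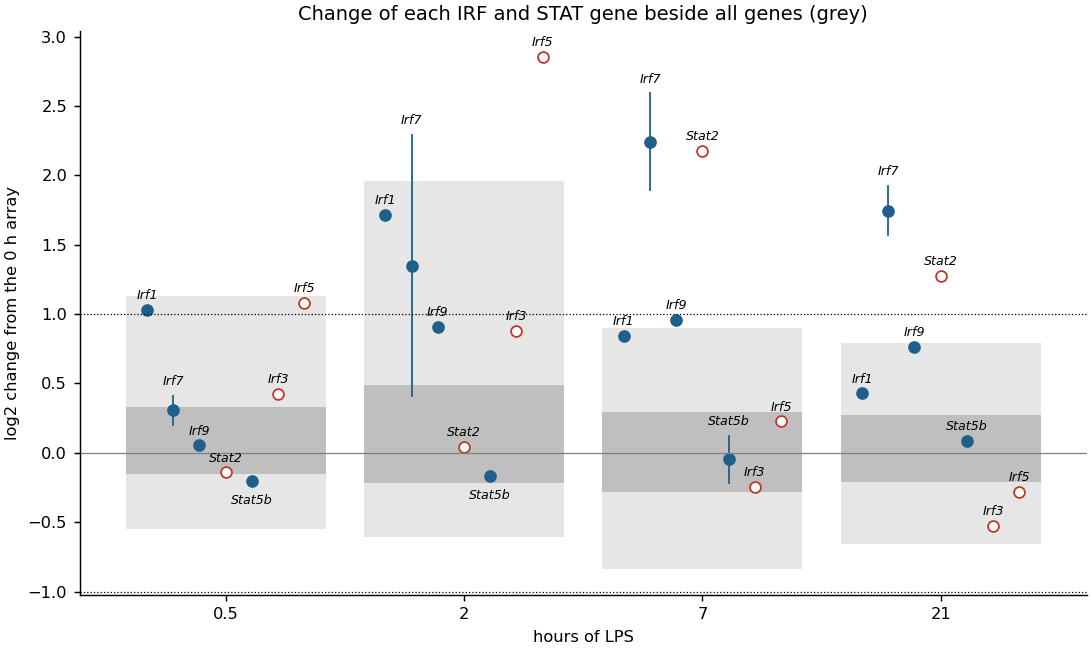
Log2 change from the 0 h array (y axis) of each IRF and STAT gene at 4 times of LPS (x axis), with open red circles for genes measured in affected runs and vertical lines joining the 2 probes of a gene. Grey bands span the 5th to 95th (light) and 25th to 75th (dark) percentiles of all 8637 genes, and dotted lines mark 2-fold. Irf7 and Stat2 lie above the light band at 7 h and 21 h, and Irf9 is just above it at 7 h.

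Irf7 encodes the factor that amplifies type I interferon production. Its first probe had log2 ratios of 2.36, 2.77, 4.65, 4.95 and 4.28 at 0, 0.5, 2, 7 and 21 h. Its second probe had 2.29, 2.49, 2.70, 4.18 and 3.86. In unstimulated cells the gene already stood 5.01-fold above embryo RNA. Both probes were highest at 7 h, and the second-highest array was that of 2 h for the first probe and that of 21 h for the second. The mean change from 0 h was 2.24 at 7 h (SD over probes 0.49, n = 2), a 4.73-fold difference, and 1.74 at 21 h (SD 0.25), or 3.35-fold. At 7 h only 36 of the 8637 genes had a larger change, and at 21 h 54. Both changes exceed 2 times the pooled SD over probes.

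At 2 h the probes of Irf7 disagreed, with changes of 2.29 and 0.41 (mean 1.35, SD 1.33). The gene passes 2-fold there through the first probe alone. Among probes outside affected runs whose 0 h ratio lay within 0.5 log2 units of that first probe, 1 of 73 had a higher change at 2 h, and for the second probe 15 of 85 did. Leaving out runs with many high probes at 0.5 h or 2 h lowers both of these counts. Under quantile normalization over probes outside affected runs, a setting added after seeing the data, the 2 h change of the gene was 0.03, and over all probes it was -1.86. At 7 h the same settings gave 2.15 and 1.82. The difference between 7 h and 21 h, -0.50, exceeded the pooled SD for that pair of arrays, 0.40, while that between 2 h and 7 h, 0.89, did not (1.03). That SD is of a single probe, and a mean of 2 probes would spread less. From 2 h to 7 h the first probe went from 4.65 to 4.95 and the second from 2.70 to 4.18.

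Stat2 encodes the STAT that acts in ISGF3 downstream of the type I interferon receptor. Its log2 ratios were 0.29, 0.15, 0.33, 2.46 and 1.56 in order of time. The first 3 arrays lay within 0.18 of each other, and those of 7 h and 21 h stood clearly above them. The change from 0 h was 2.17 at 7 h (4.52-fold) and 1.27 at 21 h (2.42-fold), each over 2 times the pooled SD, and 42 genes had a larger change at 7 h. Against the 0.5 h array it was 2.32 at 7 h. The difference from 7 h to 21 h was -0.90, against a pooled SD of 0.40.

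The single probe of Stat2 lies in an affected run, but its early values were not high. Of 4920 probes in affected runs with a 0 h ratio within 0.5 log2 units of it, 68.0% had a higher change at 2 h, and at 7 h 0.521% of 4989 did. Of its 20 nearest probe numbers, 6 were also at least 2-fold higher at 7 h, with a median log2 change of 0.38. Over its whole run this share was 14.7%, above the 3.19% to 8.79% in the runs of the other members. With each probe set against the median of its run, the 7 h change was 2.13. The part of the run in this value was not tested further.

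Irf9 encodes the DNA-binding subunit of ISGF3. Its log2 ratios were 0.11, 0.16, 1.01, 1.07 and 0.87, so that 2, 7 and 21 h lay together above 0 h and 0.5 h. The change from 0 h was 0.91 at 2 h and 0.96 at 7 h (1.94-fold), just under the 2-fold line, and 0.76 at 21 h (1.69-fold). The values at 7 h and 21 h exceeded the pooled SD and that at 2 h did not. At 2 h that SD is largest, 0.97, and it takes in probes of affected runs, where Irf9 does not lie. The 3 later arrays differed from each other by at most 0.20, less than the spread. Under quantile normalization of all probes the 7 h change was 1.20 and passed 2-fold. Over probes outside affected runs that normalization gave 0.89, and without centring the change was 0.74, both under 2-fold. Of the ISGF3 genes measured, Stat2 and Irf9 were thus both above 0 h at 7 h and 21 h, and at 2 h Irf9 stood at 0.91 and Stat2 at 0.04.

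Irf1 encodes a factor that activates interferon-response and antigen presentation genes. Its log2 ratios were 0.22, 1.25, 1.93, 1.06 and 0.65, so all 4 LPS arrays lay above 0 h and the highest was that of 2 h. The changes were 1.03 at 0.5 h (2.04-fold), 1.71 at 2 h (3.28-fold), 0.84 at 7 h (1.79-fold) and 0.43 at 21 h (1.35-fold). The first 3 exceeded the pooled SD, though none was beyond 2 times it, and the step from 0.5 h to 2 h, 0.68, did not exceed it (0.69). Of 5749 probes outside affected runs with a similar 0 h ratio, 1.34% had a higher change at 2 h. That share is low in part because runs with many high probes at 0.5 h or 2 h were left out. Of its 20 nearest probe numbers, 0 were at least 2-fold higher at 2 h. At 21 h 3 of the 20 were, and their median log2 change was 0.41, beside 0.43 for Irf1. With the run median removed the 21 h change of Irf1 was 0.20. At 0.5 h the value of Irf1 sits at the 2-fold line, which it passes as reported and not without centring (0.98) or with the run median removed (0.81). Under quantile normalization of all probes the 2 h change was 0.97 and no longer past 2-fold. The 7 h change was 1.04 under that setting, so 7 h rather than 2 h was highest. Over probes outside affected runs that normalization gave 1.43 at 2 h and 0.75 at 7 h.

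Irf5 encodes the MyD88-linked factor of inflammatory cytokine genes. Its log2 ratios were 2.60, 3.68, 5.45, 2.83 and 2.32. The 2 h array was highest by far, and 0, 7 and 21 h lay within 0.51 of each other. The change was 1.08 at 0.5 h (2.12-fold), 2.85 at 2 h (7.23-fold), 0.23 at 7 h and -0.28 at 21 h. The early values stand in a run where 17.6% of probes at 0.5 h and 33.3% at 2 h were at least 2-fold higher. Among 77 probes of affected runs with a 0 h ratio within 0.5 of its own, the median change at 2 h was 0.84, the 10th to 90th percentiles ran from -0.36 to 4.93, and 16 exceeded Irf5. Under quantile normalization the changes were -1.73 at 0.5 h and -1.41 at 2 h, so their direction depends on the scaling. With the run median removed they were 0.83 and 2.11.

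Irf3 encodes the factor activated directly below TLR4 and TRIF. Its log2 ratios were 0.50, 0.92, 1.38, 0.25 and -0.03. The highest was again that of 2 h, with a change of 0.88 (1.84-fold) that did not exceed the pooled SD. At 7 h and 21 h the gene stood at 0.842 and 0.694 of the 0 h level, and the latter change, -0.53, exceeded the pooled SD of 0.47 by little. Of 4299 probes of affected runs with a similar 0 h ratio, 35.9% had a higher change at 2 h. Under quantile normalization of all probes the changes were 0.10 at 0.5 h, in place of 0.43, and 0.24 at 2 h, and with the run median removed they were 0.07 and 0.76. Irf3 was under 2-fold at every time.

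Stat5b encodes one of 2 closely related STAT5 proteins. Its first probe had log2 ratios of -0.15, -0.33, -0.31, -0.37 and -0.06 in order of time, and its second -0.29, -0.52, -0.47, -0.17 and -0.21. All 10 values lay below the array median, and the 2 probes, which carry the same annotated transcript record, had an SD of 0.14 or less on each array. The mean changes were -0.20, -0.17, -0.05 and 0.09, each within the pooled SD. A cDNA probe of Stat5b could also bind RNA of its paralogue Stat5a, which was not tested.

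As reported, the courses of Irf1 and Irf7 or Stat2 differed in which array was highest. From 2 h to 7 h, Irf1 differed by -0.87, Stat2 by 2.13 and Irf7 by 0.89. Only that of Stat2 exceeded the pooled SD of 1.03 for this pair, which is that of a single probe, while Irf7 is a mean of 2. Under quantile normalization of all probes Irf1 had changes of 0.97 at 2 h and 1.04 at 7 h. Its highest array was then that of 7 h, as for Irf7 and Stat2, so this contrast depends on the scaling. Without replicates these differences between genes were not tested.

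**Figure D4:**
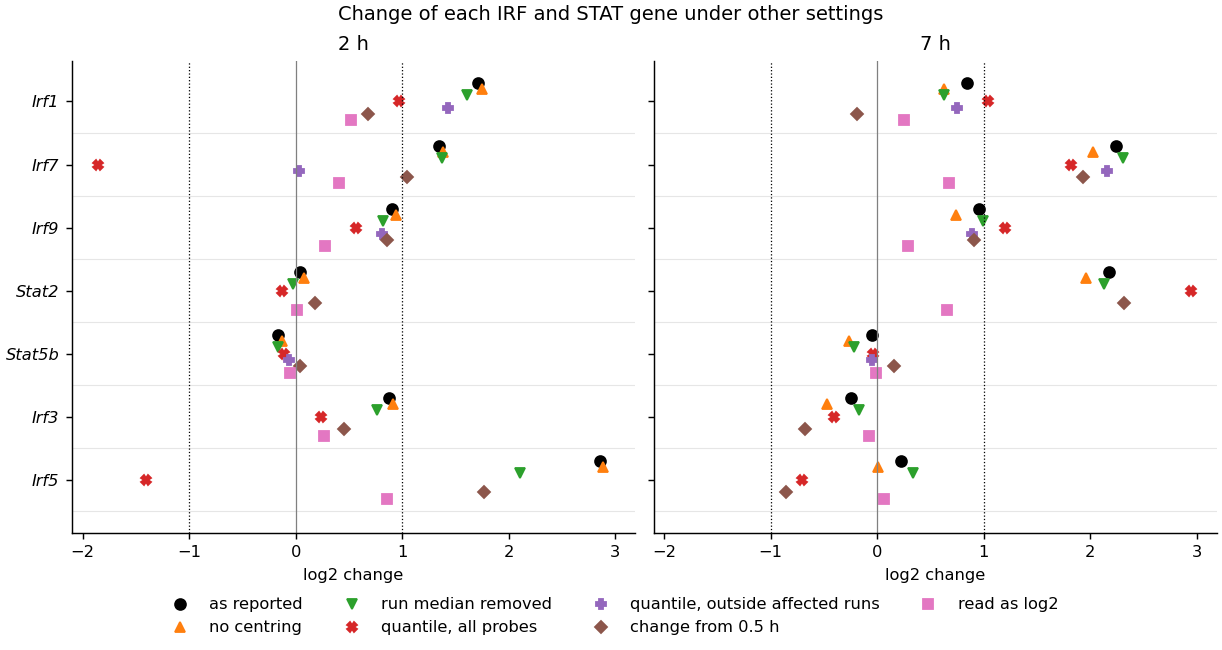
Log2 change (x axis, from 0 h except in the setting against 0.5 h) of each IRF and STAT gene (y axis) at 2 h (left) and 7 h (right) under 7 settings, with dotted lines at 2-fold. At 7 h Irf7 and Stat2 stay past 2-fold under each setting that measures them but the reading as log2 (0.67 and 0.65), whereas at 2 h Irf5 and Irf7 lie below 0 under quantile normalization of all probes.

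The other genes of the pathway were taken from 6 lists by role, which hold 66 measured genes besides the members. Of these, 7, 15, 22 and 14 were at least 2-fold higher at 0.5, 2, 7 and 21 h and 0 lower at any time. These are 10.6%, 22.7%, 33.3% and 21.2% of the 66, beside 5.95%, 12.4%, 4.08% and 3.05% of all genes. Most of those that passed are interferon target genes, of which 7, 11, 18 and 13 of 31 measured passed that line (22.6%, 35.5%, 58.1% and 41.9%). Their median log2 change was 1.25 at 7 h, beside -0.00029 over all genes. By probes outside affected runs these were 2, 4, 9 and 5 of 19 (10.5%, 21.1%, 47.4% and 26.3%). Of all genes measured there, 1.28%, 4.22%, 4.52% and 2.55% passed. At 0.5 h and 2 h these shares follow in part from how the runs were chosen. The largest at 7 h were Cxcl10, encoding a chemokine for T cells (5.42), the antiviral genes Ifit1 (4.07, SD over probes 0.60) and Rsad2 (4.04, SD 0.20), and the nucleic acid sensor gene Ifi204 (3.44). Every probe of Cxcl10, Ifit1 and Rsad2 lies in an affected run, while that of Ifi204 does not.

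The signalling genes above and around the factors were closer to all genes in these counts, and the difference from the target genes was not tested. Of 35 measured genes on the lists of ligands, receptors, kinases, inhibitors and partners that are not target genes as well, 0, 4, 4 and 1 were at least 2-fold higher (0%, 11.4%, 11.4% and 2.86%). At 2 h and 21 h these shares lie near those of all genes, 12.4% and 3.05%, at 0.5 h the share is below the 5.95% of all genes, and at 7 h it is above the 4.08%. Among the inhibitors, Usp18, a protease that limits signalling at the interferon receptor and is also counted as a target, had a log2 change of 2.42 at 7 h and 1.91 at 21 h on a probe outside affected runs. Pias4, a SUMO ligase that restrains STAT signalling, had 1.36 at 7 h, on a probe in an affected run, and the other 11 of 13 inhibitors were under 2-fold there. Of 7 kinases and adaptors, Tank (1.38) and Azi2 (1.34), which both bind the IRF3 kinase TBK1, were at least 2-fold higher at 7 h, while Tbk1 itself was at 0.66. The probe of Azi2 lies in an affected run and that of Tank does not. Of 3 ligands Csf1, the growth factor of the lineage, was at 1.42, on a probe in an affected run. Of 7 partners Ifi35, which binds NMI and is also counted as a target, was at 1.03 (SD 0.15, 2 probes, both in affected runs). Of 8 receptors 0 passed 2-fold at 7 h, and Ifnar2, a chain of the type I interferon receptor, stood at 0.58 (3 probes).

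**Figure D5:**
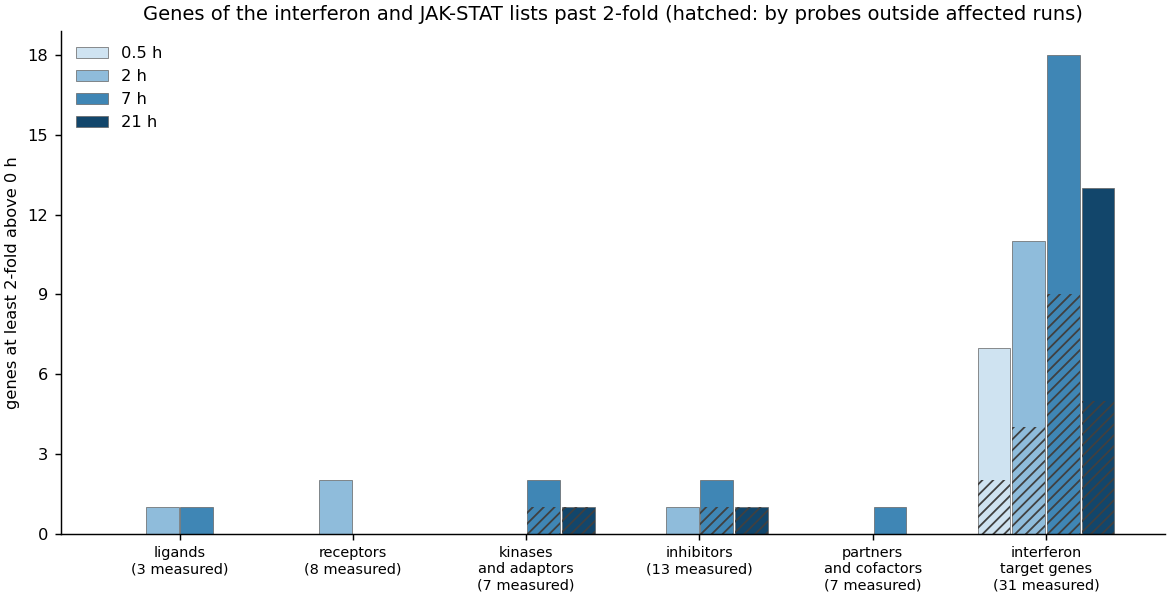
Number of genes at least 2-fold above 0 h (y axis) in each list of the interferon and JAK-STAT pathway (x axis) at 0.5, 2, 7 and 21 h, with hatching for the count by probes outside affected runs. The interferon target genes hold 18 of 31 at 7 h, and each other list holds at most 2 at any time.

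The genes whose course was most like that of Irf7, by the root mean square difference of the 4 log2 changes over 3014 other genes with 2 or more probes, were Mxd1 (0.25), Igtp (0.36) and Serp1 (0.39). Mxd1, a Myc antagonist, had changes of 0.32, 1.32, 2.68 and 1.99, and Igtp, an interferon-inducible GTPase, had 0.07, 1.24, 2.42 and 1.11. The 2 h change of Irf7 used in this ranking, 1.35, is the mean of probes at 2.29 and 0.41. For Stat2, which has 1 probe, the nearest of 3015 were Serp1 (0.37), Ms4a6b (0.48) and Ndufv1 (0.51). Serp1, a stress-associated protein of the endoplasmic reticulum, had 0.21, 0.69, 2.20 and 1.34. Of the probes of Mxd1, Igtp and Ndufv1, 1 of 2 lies outside affected runs for each gene. For Serp1 2 of 3 do, and for Ms4a6b 2 of 2.

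Markers of other cells that a bone marrow culture may hold were measured in part. Of 11 B cell markers 5 were measured, and 3, 2, 2 and 1 of them were at least 2-fold higher in order of time, with a median change of 1.13 at 0.5 h and 0.22 for the 4 measured outside affected runs. Their median level was 0.17, 0.61, 0.98, 0.53 and -0.29, and the defining marker Ms4a1 was not among those measured. Of 4 T and NK cell markers and 4 dendritic cell markers 0 were at least 2-fold higher at any time, and of 7 neutrophil markers 0 were at 0.5, 2 and 7 h, with 1 higher and 2 lower at 21 h. Their part in the values of the IRF and STAT genes was not tested.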

How the data were processed

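The deposited table holds 1 log ratio per probe and array, read as log10 because the authors' base is not stated. Labelling was indirect with amino-allyl dyes, per the labels' protocols, and the normalization, dye of each channel and direction are not given in the sources used here. Of 19828 probes, 14759 carried 1 symbol in the platform annotation of 2008, 170 several and 4899 were unlisted. Entrez identifiers matched 14628 to GRCm38.p6 names. Values were turned to log2 (a factor of 3.32), centred on the array median over 18296 probes measured on all 5 arrays, and averaged per gene (13782 probes, 8637 genes). A change is a time minus 0 h, and 2-fold is a rule of size. Each array measured 19344 to 19670 probes, and precision is limited by the 5 arrays. Members and lists were chosen with earlier results of these data known. Named pathway genes are up to 4 per list with the largest change at 7 h past 2-fold. Genes of similar course were ranked over those with at least 2 probes, 3 for each member past 2-fold at 7 h or 21 h. The alternatives were other centring and normalization, probes outside affected runs, medians, other baseline, base and symbols. Python 3.11.15 with pandas 2.3.3 was used. Centring, gene means, 2-fold calls and the pooled SD were tested on simulated data. These had the 21 h spread (0.47) at each time and no pattern by probe number. The affected runs and the quantile settings were not tested in that way.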

Additional observations from a re-analysis of the deposited data

How the results depend on the processing

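Of 249 recomputed changes of single members, 100 were identical to those reported: members have 1 or 2 probes, so medians over probes, annotated symbols, probes measured on both arrays and, for members outside affected runs, leaving out these runs changed no value. Of the other 149, 123 moved by less than the pooled SD over probes and 26 by more, and 14 changed sign, 8 of them by more than that SD. Among changes of at least 2-fold, 3 reversed, under quantile normalization of all probes: Irf5 at 0.5 h (-1.73) and 2 h (-1.41) and Irf7 at 2 h (-1.86). Of smaller changes, Irf7 at 0.5 h (-1.93) and Irf5 at 7 h (-0.70) reversed under that setting, and Irf1 at 7 h (-0.19) and 21 h (-0.60) and Irf5 at 7 h (-0.86) did so against the 0.5 h array. The affected runs hold 45.3% of all probes. They took 86.9% and 90.3% of the highest 5% of ratios at 0.5 h and 2 h, against 58.3% at 0 h. The shares at 0.5 h and 2 h follow in part from how these runs were defined. The cause of the reversals was not tested. The number of members at least 2-fold higher at 0.5 h, 2 as reported, was 1 without centring and 1 outside affected runs, and 0 under quantile normalization of all probes, with run medians removed, and with quantile normalization outside the runs. At 2 h, 3 as reported, it was 0 under quantile normalization and 1 under that outside the runs. At 7 h, 2 as reported, it was 4 under quantile normalization, 1 outside the runs and 1 under quantile normalization there. At 21 h, 2 as reported, it was 1 under both settings outside the runs, which leave 4 members to count. Values read as log2 gave 0 at all 4 times. The number at least 2-fold lower, 0 as reported, was 2 at 0.5 h, 2 at 2 h and 1 at 21 h under quantile normalization, and 1 at 21 h against the 0.5 h array. Medians over probes, probes measured on both arrays compared and the annotated symbols changed no member value, so they changed no count of members. Outside affected runs, where fewer genes are measured, interferon target genes at least 2-fold higher numbered 2, 4, 9 and 5, inhibitors 0 at 2 h and 1 at 7 h, kinases and adaptors 1 at 7 h, ligands 0 at 2 h and 0 at 7 h, partners 0 at 7 h and receptors 0 at 2 h. No paired analysis was possible because each time has 1 array and the labels number no replicates. Signal over background was not analysed here, so dim spots could not be set apart.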

Other observations

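Response element letters were also counted in the promoters of the interferon target genes that the IRF and STAT factors serve. Of the 18 target genes at least 2-fold higher at 7 h, 14 have a RefSeq window, 15 windows in all, and 7 of these (46.7%) held the response element core GAAANNGAA. The share was 2 of 13 windows (15.4%) for the measured targets under 2-fold and 8.56% for all windows. The GAS letters stood in 6 of the 15 (40%), in 2 of the 13 and in 8.30% of all. These shares are descriptions of a list chosen for its known link to interferon, and they were not tested.

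Some genes outside the naming rule are given because their values stand out, and were chosen after these were seen. Of the 4 signalling genes at least 2-fold higher at 2 h that are not target genes, the ligand gene Csf1 had the largest log2 change (3.89, 14.8-fold). The others were the receptor genes Il27ra (1.13) and Epor (1.63) and the inhibitor gene Socs2 (2.12), and all 4 rest on probes in affected runs. Socs1, the suppressor of interferon signalling, had log2 changes of -0.14, -0.54, -0.64 and 0.01 on 1 probe outside the runs. Fcgr1, the high-affinity IgG receptor, had 6.83 and 6.84 at 0.5 h and 2 h and 1.52 at 7 h on a probe in an affected run.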
